A study of Mus musculus with 12 samples.

Results

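Genes that set the dorsoventral axis of the limb, together with the LIM homeobox genes and the LIM cofactor most often studied in limb buds, were followed through knockout of one of them, Lmx1b. The 7 genes were Lmx1b, Lmx1a, Wnt7a, En1, Lhx2, Lhx9 and Ldb1. Every probe set of the array annotated to one of them was taken, whatever its values, which gave 13 probe sets of the 45037 that were not controls, and 7 of the 18193 genes tested. Lmx1b had 2 probe sets, Wnt7a 3, Lhx9 4, and Lmx1a, En1, Lhx2 and Ldb1 had 1 each.

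Total RNA from limbs of mouse embryos labelled C57BL/6 was read on 12 Affymetrix arrays, 2 for each of 6 groups: Lmx1b -/- (knockout, KO) and Lmx1b +/+ (wild type, WT) at 11.5, 12.5 and 13.5 days post coitum (dpc). The tissue was the limb bud with its girdle at 11.5 and 12.5 dpc, and at 13.5 dpc the zeugopod and autopod alone, the distal segments of the limb. Each array was a pool of limbs, and the 2 pools of a group were made from different embryos. A pool held 6 limbs by the extraction protocol, although the series text puts 3 in those of 12.5 dpc. KO embryos were homozygous by genotyping, and the sources used here do not say which part of the gene the allele removes. No Cre or other transgene is named. Effects of stage cannot be told apart from those of the scan series or, for 13.5 dpc, of the smaller tissue piece and of limb type, whereas both genotypes of a stage lie in 1 scan series.

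LIM homeodomain proteins are transcription factors that carry a pair of LIM zinc-binding domains in front of a DNA-binding homeodomain, and they act through cofactors of the LDB family that bind the LIM domains. In the limb bud, Wnt7a is secreted by the dorsal ectoderm and switches on Lmx1b in the dorsal mesenchyme beneath it, where LMX1B gives the limb its dorsal pattern. En1 in the ventral ectoderm keeps Wnt7a out of the ventral side, and Lhx2 and Lhx9 act in the distal mesenchyme, where they take part in outgrowth.

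Values are log2 expression values, whose median over all probe sets and arrays was 6.28. A difference is KO minus WT on that log2 scale, with its standard error (SE) or 95% interval (CI) from a limma fit over all 12 arrays. A call means a Benjamini-Hochberg adjusted p under 0.05 over all genes, or over all probe sets where a probe set is tested. There were 2 arrays a group, and that number limits how precise each value is.

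A pair of KO arrays stood apart from their groups. KO array 2 at 13.5 dpc had a mean over 3 proximal limb markers (Meis1, Meis2 and Shox2) of 10.36, against 8.90 on KO array 1 and 8.41 and 8.20 on the WT arrays. Its mean over 6 erythroid markers, of which Hba-a1 lay below the median of all values on all 12 arrays, was 10.41, against 9.55 on KO array 1 and 9.35 and 9.06 on the WT arrays, and its mean over 3 distal HOX genes was 10.38, against 10.89 on KO array 1 and 10.81 and 11.05 on the WT arrays. KO array 2 at 12.5 dpc had a mean over 4 heat shock genes of 10.41, against a range of 8.40 to 9.01 on the other 11 arrays, and this came from Hspa1a (9.36, against 5.13 on KO array 1 and 4.80 and 5.02 on the WT arrays) and Hspa1b (9.81, against 7.34 on KO array 1 and 6.48 and 7.31 on the WT arrays), while Dnajb1 (11.04) and Hsph1 (11.44) lay within the range of the other arrays. Its mean over 8 skeletal muscle markers was 8.83, against 9.71 on KO array 1 and 9.42 and 9.56 on the WT arrays. Limb mesenchyme markers averaged 11.39 to 11.99 on every array, and the 14 surface ectoderm markers averaged 7.71 to 9.0. Lowest for the ectoderm markers was WT array 1 at 12.5 dpc (7.71), against 8.24 on WT array 2 and 8.16 and 8.12 on the KO arrays. The hindlimb genes Tbx4 and Pitx1 averaged 6.75 to 7.05 at 11.5 and 12.5 dpc and 9.99 to 10.17 at 13.5 dpc, in both genotypes. The forelimb gene Tbx5 had 9.63 and 9.93 on KO arrays at 13.5 dpc, against 9.60 and 9.47 on WT arrays, and was lower there than at 12.5 dpc by a log2 difference of -1.36 in KO and -1.49 in WT (limma adjusted p = 0.00234 in KO and 0.000972 in WT). The series text names both limb types without saying which went into which pool, so limb type cannot be told apart from stage. Calls that depended on either KO array are given with and without it.

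Of the 7 genes, Lmx1b alone differed between genotypes past the threshold. Lmx1b is the gene knocked out, so a difference in it belongs to the design, and upstream sequence was not used to explain it. The sequence just upstream of its transcript start is printed, as a description, beside that of Lmx1a. Lmx1a is its closest relative and also a LIM homeodomain gene, and its probe set was dim and not called. Lmx1b and Lmx1a windows are given in that order. Both are the 250 bases before a transcript start in RefSeq, build GRCm38.p6, written 5′ to 3′, with capitals marking TAAT, or ATTA where it lies on the other strand, the core that homeodomains commonly bind. The Lmx1b window is chr2:33641099-33641348 on the minus strand, and the Lmx1a window is chr1:167689308-167689557 on the plus strand.
Lmx1b: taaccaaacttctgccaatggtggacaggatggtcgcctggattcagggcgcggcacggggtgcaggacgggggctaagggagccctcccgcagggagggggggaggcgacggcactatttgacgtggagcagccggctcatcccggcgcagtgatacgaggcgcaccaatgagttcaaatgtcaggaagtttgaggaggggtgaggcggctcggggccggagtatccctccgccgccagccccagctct
Lmx1a: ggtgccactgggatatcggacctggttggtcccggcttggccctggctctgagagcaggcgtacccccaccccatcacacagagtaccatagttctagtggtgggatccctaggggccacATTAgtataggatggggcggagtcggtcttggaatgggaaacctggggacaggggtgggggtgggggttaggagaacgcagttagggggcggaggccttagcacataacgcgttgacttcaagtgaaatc
The Lmx1b window held 0 matches to TAAT on either strand, and the Lmx1a window held 1. Of all 32851 windows of this length, 54.9% held at least 1 match, and 3 of the 10 windows of the 7 genes did, 1 each for Lmx1a, Lhx9 and Ldb1. GC content was 65.2% in the Lmx1b window and 59.2% in the Lmx1a window, against a median of 52.4% over all windows, and a match to 4 letters is a description of the sequence only.

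Lmx1b was read chiefly by the probe set 1441729_at, on chromosome 2, which rests on an expressed sequence tag. At 11.5 dpc this probe set had 5.60 and 5.72 on the KO arrays, against 9.28 and 9.64 on the WT arrays. The 12.5 dpc values were 6.50 and 7.02 on the KO arrays, against 9.29 and 9.55 on the WT arrays. At 13.5 dpc it had 7.48 and 8.88 on the KO arrays, against 10.27 and 10.19 on the WT arrays. All 6 KO arrays lay below all 6 WT arrays, the KO arrays at 11.5 dpc lay below the median of all values, and the highest KO value was that of array 2 at 13.5 dpc.

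**Figure D1:**
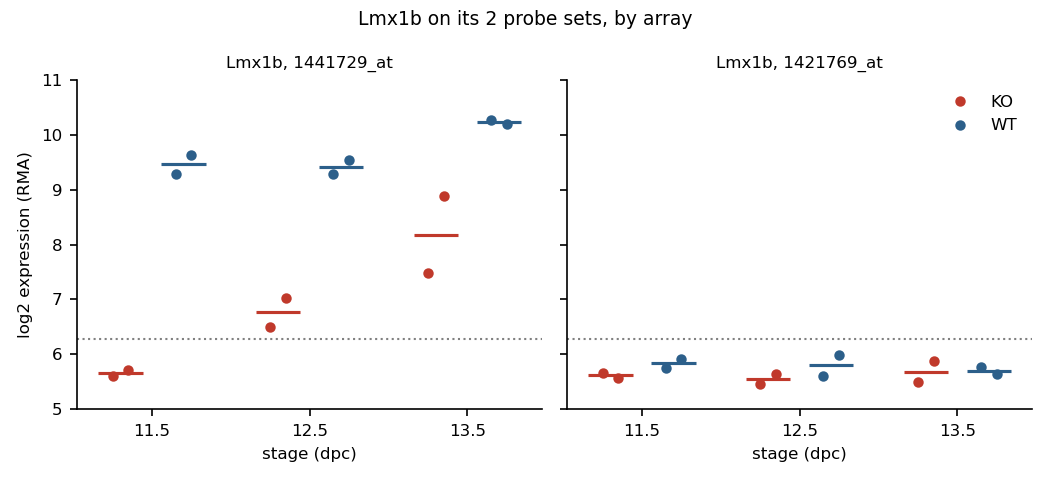
Log2 expression (y axis) of the 2 Lmx1b probe sets on each array, by stage in dpc (x axis), with KO in red left of WT in blue. Points are arrays, bars are means of 2 arrays, and the dotted line is the median of all values, 6.28; on 1441729_at KO lies below WT at every stage, while 1421769_at stays below the dotted line on all 12 arrays.

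Averaged over the 3 stages, Lmx1b was lower in KO by a log2 difference of -2.84 ± 0.20 (SE, 6 arrays per genotype, limma adjusted p = 0.000356). That comparison called 0.203% of all genes. The difference was -3.80 ± 0.35 at 11.5 dpc (adjusted p = 0.00872), which put KO at 7.18% of the WT level on the linear scale, a share that dim KO values such as these overstate. At 12.5 dpc it was -2.66 ± 0.35 (adjusted p = 0.0476), with KO at 15.9% of WT. At 13.5 dpc it was -2.05 ± 0.35 (adjusted p = 0.153), with KO at 24.1% of WT, and this did not pass. The background at the 3 stages was 0.0165%, 0.0385% and 0.0275% of genes called. In bulk RNA a smaller number of Lmx1b-expressing cells and less Lmx1b RNA per cell cannot be told apart.

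The size of the difference at 13.5 dpc depended on which KO array was kept, and over 21 alternatives it lay between -2.75 and -1.04. Without KO array 2 of that stage the difference was -2.75, resting on KO array 1 alone (7.48). Leaving out KO array 1 instead moves it the other way, as KO array 2 (8.88) lies nearer to WT. KO array 2 is the one with raised proximal and erythroid markers, whose part in its Lmx1b value was not tested. The 12.5 dpc call was lost under 14 of 21 alternatives, at differences between -2.79 and -1.45, among them leaving out any 1 WT array or either KO array of 11.5 dpc. The 11.5 dpc call was lost under 5 of 21, with -3.74, -3.86 and -3.62 without KO array 1, KO array 2 or WT array 2 of 11.5 dpc, while the mean over the stages passed in all 20 alternatives run for it.

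The gap between genotypes was widest at 11.5 dpc in the fitted values, where the KO values were dim, and the change of the gap with stage did not pass. The KO effect at 13.5 dpc minus that at 11.5 dpc was 1.75 ± 0.50 (unadjusted p = 0.00571, adjusted p = 1.0), and that at 12.5 dpc minus that at 11.5 dpc was 1.14 ± 0.50 (adjusted p = 0.793). None of the 18193 genes passed in any of the 3 differences between stages, which is 0% called, although 1132, 1546 and 377 genes had an unadjusted limma p under 0.05 for 12.5 against 11.5, 13.5 against 12.5 and 13.5 against 11.5 dpc. Without KO array 1 of 13.5 dpc, the Lmx1b difference between 13.5 and 11.5 dpc was 2.45 and passed (adjusted p = 0.0379), on the single KO array of that stage that stood apart.

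The signal of 1441729_at also differed between stages within a genotype. In KO it was higher at 13.5 than at 12.5 dpc by 1.42 ± 0.35 (adjusted p = 0.0223, in a comparison that called 18.6% of genes), or 0.71 without KO array 2 of 13.5 dpc (adjusted p = 0.0538) and 1.15 without KO array 1 of 12.5 dpc (adjusted p = 0.0779). The KO difference between 12.5 and 11.5 dpc was 1.10 (adjusted p = 0.0594), and it passed without either KO array of 13.5 dpc (adjusted p = 0.00646). In WT the probe set differed by -0.04 between 12.5 and 11.5 dpc (adjusted p = 0.950) and by 0.81 between 13.5 and 12.5 dpc (adjusted p = 0.119), which passed without either KO array of 13.5 dpc (adjusted p = 0.0128). The order of the group means was WT at 13.5 dpc (10.23 ± 0.05, SD, n = 2), WT at 11.5 dpc (9.46 ± 0.25), WT at 12.5 dpc (9.42 ± 0.19), KO at 13.5 dpc (8.18 ± 0.99), KO at 12.5 dpc (6.76 ± 0.37) and KO at 11.5 dpc (5.66 ± 0.08), and the arrays of WT at 11.5 and 12.5 dpc overlapped.

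The second Lmx1b probe set, 1421769_at, which rests on the RefSeq transcript, was dim throughout. It had 5.66 and 5.57 on KO arrays at 11.5 dpc, against 5.76 and 5.92 on WT arrays. The remaining KO values were 5.46 and 5.65 at 12.5 dpc and 5.48 and 5.88 at 13.5 dpc, against WT values of 5.61 and 5.98 at 12.5 dpc and 5.76 and 5.64 at 13.5 dpc. All 12 values lay below the median of all values, and the genotypes overlapped at 12.5 and 13.5 dpc. Its mean difference was -0.16 (95% CI -0.37 to 0.04, limma adjusted p over probe sets = 0.783), and over the 12 arrays it correlated with 1441729_at at r = 0.59, a description that carries the genotype difference of both. The probe sets gave different sizes for the same labelled gene, and their positions relative to the deleted part were not used here.

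Lmx1a, on chromosome 1, is the paralog of Lmx1b and is known chiefly from the roof plate of the neural tube and from dopaminergic neurons. Its probe set had 6.00 and 6.03 on KO arrays at 11.5 dpc, against 5.63 and 5.90 on WT arrays. At 12.5 dpc it had 5.55 and 5.63 on KO arrays, against 5.65 and 5.60 on WT arrays, and at 13.5 dpc 5.23 and 5.72 on KO arrays, against 5.37 and 5.22 on WT arrays. It lay below the median of all values on all 12 arrays, KO lay above WT at 11.5 dpc, and the genotypes overlapped at the other stages. The mean difference was 0.13 (CI -0.06 to 0.33, adjusted p = 0.854). A dim probe set understates the change of a rare transcript. No change between consecutive stages was called, although that between 11.5 and 12.5 dpc in KO (-0.43, adjusted p = 0.0803) and that between 12.5 and 13.5 dpc in WT (-0.33, adjusted p = 0.135) passed without either KO array of 13.5 dpc (adjusted p = 0.0240 in KO and 0.0449 in WT).

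**Figure D2:**
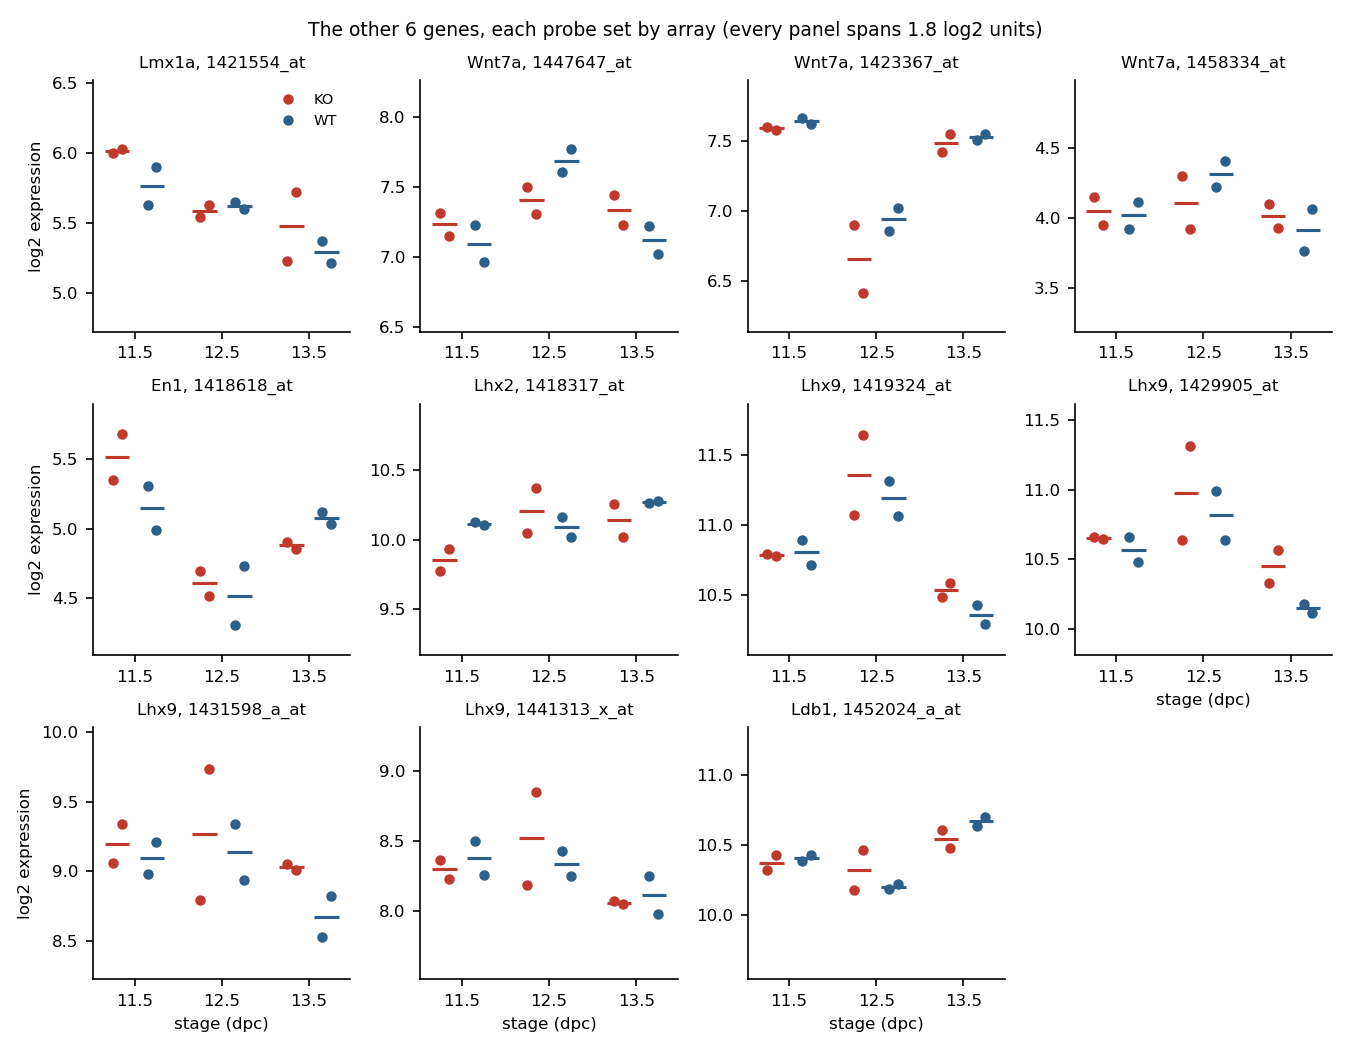
Log2 expression (y axis) of the 11 probe sets of Lmx1a, Wnt7a, En1, Lhx2, Lhx9 and Ldb1 on each array, by stage in dpc (x axis), with KO in red left of WT in blue and bars at means of 2 arrays. Each panel spans 1.8 log2 units. None of the 11 probe sets was called between KO and WT at any stage with all arrays. Single points can lie apart, as for En1 at 11.5 dpc (KO array 2 at 5.67, WT array 2 at 4.99). The highest Lhx9 point on each of its 4 probe sets is KO array 2 at 12.5 dpc.

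Wnt7a, the dorsal ectodermal ligand upstream of Lmx1b on chromosome 6, was not called between genotypes on any of its 3 probe sets. On 1447647_at, the brightest on average, KO arrays had 7.31 and 7.15 at 11.5 dpc, 7.50 and 7.31 at 12.5 dpc and 7.44 and 7.23 at 13.5 dpc. WT arrays had 7.23 and 6.96 at 11.5 dpc, 7.61 and 7.77 at 12.5 dpc and 7.22 and 7.02 at 13.5 dpc. KO lay below WT at 12.5 dpc and above it at 13.5 dpc, and the genotypes overlapped at 11.5 dpc. The mean difference was 0.02 (CI -0.15 to 0.19, limma adjusted p = 0.984).

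On 1423367_at, KO arrays had 7.60 and 7.58 at 11.5 dpc, 6.91 and 6.41 at 12.5 dpc and 7.43 and 7.55 at 13.5 dpc. WT arrays had 7.67 and 7.62 at 11.5 dpc, 6.86 and 7.02 at 12.5 dpc and 7.51 and 7.56 at 13.5 dpc. In both genotypes 12.5 dpc was the low stage, and the genotypes overlapped at 12.5 and 13.5 dpc. Its mean difference was -0.13 (CI -0.31 to 0.06, limma adjusted p over probe sets = 0.833), and at 12.5 dpc it was -0.28 (adjusted p = 0.463), or -0.53 (adjusted p = 0.0476) without KO array 1 of that stage, when the remaining KO array is the one with raised Hspa1a and Hspa1b. The third probe set, 1458334_at, read 3.77 to 4.41 over the 12 arrays, below the median of all values, with a mean difference of -0.03 (CI -0.23 to 0.18).

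Across stages the 2 brighter Wnt7a probe sets changed in opposite directions in WT. The share called between 11.5 and 12.5 dpc was 17.1% of probe sets in KO and 16.2% in WT, with 16.8% and 19.8% of genes, and between 12.5 and 13.5 dpc 17.7% of probe sets in KO and 19% in WT, with 18.6% and 25.3% of genes. In KO, 1423367_at changed by -0.93 between 11.5 and 12.5 dpc (adjusted p over probe sets = 0.00242) and then by 0.83 to 13.5 dpc (adjusted p = 0.00484), or by -0.69 and 0.58 without KO array 2 of 12.5 dpc, whereas 1447647_at did not pass in KO at either step. In WT, 1423367_at fell by 0.70 between 11.5 and 12.5 dpc (adjusted p over probe sets = 0.0113) and was higher by 0.59 at 13.5 than at 12.5 dpc (adjusted p = 0.0193). In WT, 1447647_at was higher by 0.59 at 12.5 than at 11.5 dpc (adjusted p over genes = 0.0137) and changed by -0.56 between 12.5 and 13.5 dpc (adjusted p = 0.0131). Over the 12 arrays the correlation of the 2 probe sets was r = -0.59. The direction for Wnt7a across stages depended on the probe set that represents it, and with the mean of its probe sets the WT changes were 0.06 (adjusted p = 0.760) and -0.13 (adjusted p = 0.478).

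The WT changes of Wnt7a also rested on single arrays. For 1447647_at the earlier change was 0.46 without WT array 2 of 11.5 dpc (adjusted p = 0.128) and 0.51 without WT array 2 of 12.5 dpc (adjusted p = 0.0748), and the later one -0.48 without WT array 2 of 12.5 dpc (adjusted p = 0.0745) and -0.47 without WT array 2 of 13.5 dpc (adjusted p = 0.110). For 1423367_at the adjusted p was 0.0638 to 0.0737 without WT array 1 or 2 of 11.5 dpc or WT array 1 of 12.5 dpc for the earlier change, and 0.0786 to 0.101 without WT array 1 of 12.5 dpc or either WT array of 13.5 dpc for the later one.

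En1, the ventral ectodermal repressor on chromosome 1, was dim and was not called between genotypes. Its probe set had 5.35 and 5.67 on KO arrays at 11.5 dpc, against 5.30 and 4.99 on WT arrays. Its values at 12.5 dpc were 4.70 and 4.52 on KO arrays, against 4.31 and 4.73 on WT arrays, and at 13.5 dpc 4.90 and 4.86 on KO arrays, against 5.12 and 5.03 on WT arrays. KO lay above WT at 11.5 dpc and below it at 13.5 dpc, and all 12 values lay below the median of all values. Over the stages KO and WT differed by 0.09 (CI -0.12 to 0.29, limma adjusted p = 0.936). At 11.5 dpc alone the difference was 0.37 ± 0.16, with an unadjusted p of 0.0462 and an adjusted p of 1 in the limma fit.

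In both genotypes En1 was lower at 12.5 than at 11.5 dpc. The change was -0.91 in KO (adjusted p = 0.00642) and -0.62 in WT (adjusted p = 0.0241). Between 12.5 and 13.5 dpc it changed by 0.27 in KO (adjusted p = 0.262) and by 0.55 in WT (adjusted p = 0.0320). The KO change was -0.74 without KO array 2 of 11.5 dpc (adjusted p = 0.0743). The earlier WT change was -0.47, -0.78 and -0.41 without WT array 1 of 11.5 dpc, WT array 2 of 11.5 dpc and WT array 1 of 12.5 dpc, and the later one 0.34, 0.51 and 0.59 without WT array 1 of 12.5 dpc, WT array 1 of 13.5 dpc and WT array 2 of 13.5 dpc, and none of these 6 passed.

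Surface ectoderm markers moved with these stage changes. The list held 14 keratin, cadherin and other epithelial genes, all measured and none below the median of all values on every array. Its mean per array was 8.68 and 8.79 in KO and 8.73 and 8.60 in WT at 11.5 dpc. At 12.5 dpc it was 8.16 and 8.12 in KO and 7.71 and 8.24 in WT, and at 13.5 dpc 8.72 and 8.82 in KO and 9.0 and 8.92 in WT. Between 11.5 and 12.5 dpc 6 of the 14 fell in KO and 9 in WT, where 10.6% of all genes fell in KO and 13.1% in WT. At the later step, from 12.5 to 13.5 dpc, 7 rose in KO and 11 in WT, where 10.4% of all genes rose in KO and 14.5% in WT. None of the 14 was called between genotypes in any of the 4 comparisons of KO with WT. The 12.5 dpc arrays were the low ones for the marker list, for En1 and for 1423367_at of Wnt7a, and the part of ectoderm content in those changes was not tested.

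**Figure D3:**
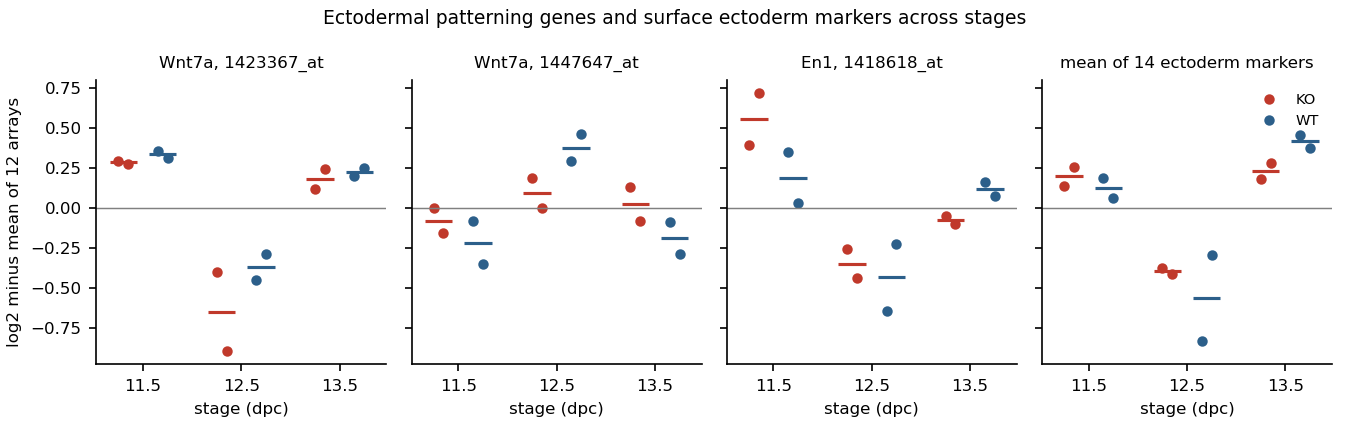
Log2 expression minus the mean over 12 arrays (y axis) for 2 Wnt7a probe sets, En1 and the mean of 14 surface ectoderm markers, by stage in dpc (x axis), with KO in red left of WT in blue and bars at means of 2 arrays. The 12.5 dpc arrays are low for 1423367_at, En1 and the markers. On 1447647_at the WT arrays of 12.5 dpc are high, while KO array 2 of that stage (7.31) lies at about the mean over 12 arrays.

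Lhx2, a LIM homeodomain gene of the distal limb mesenchyme on chromosome 2, was bright and nearly level. Its probe set had 9.78 and 9.93 on KO arrays at 11.5 dpc, against 10.13 and 10.10 on WT arrays. Those at 12.5 dpc were 10.05 and 10.37 on KO arrays, against 10.16 and 10.02 on WT arrays, and at 13.5 dpc 10.26 and 10.02 on KO arrays, against 10.26 and 10.27 on WT arrays. KO lay below WT at 11.5 and 13.5 dpc, at 13.5 dpc by a margin smaller than the gap between the KO arrays, and the genotypes overlapped at 12.5 dpc. Averaged over the stages the difference was -0.09 (CI -0.25 to 0.07, adjusted p = 0.895), and the difference at 11.5 dpc was -0.26 ± 0.13 (adjusted p = 1). No change between consecutive stages passed in either genotype, but that between 11.5 and 12.5 dpc in KO, 0.35 (adjusted p = 0.0836), was 0.51 and passed without KO array 1 of 12.5 dpc (adjusted p = 0.0263).

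Lhx9, the closest relative of Lhx2, lies on chromosome 1 and acts with it in outgrowth of the limb bud. On 1419324_at, the brightest of its 4 probe sets, KO arrays had 10.80 and 10.78 at 11.5 dpc, 11.07 and 11.64 at 12.5 dpc and 10.49 and 10.59 at 13.5 dpc. WT arrays had 10.89 and 10.72 at 11.5 dpc, 11.32 and 11.06 at 12.5 dpc and 10.43 and 10.29 at 13.5 dpc. The highest of the 12 values was KO array 2 at 12.5 dpc, KO lay above WT at 13.5 dpc, and the genotypes overlapped at the earlier stages. The mean difference was 0.11 (CI -0.11 to 0.32, adjusted p = 0.916).

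The other Lhx9 probe sets, 1429905_at, 1431598_a_at and 1441313_x_at, gave mean differences of 0.18 (CI -0.07 to 0.44), 0.19 (CI -0.14 to 0.52) and 0.02 (CI -0.23 to 0.26). On 1429905_at and 1431598_a_at KO again lay above WT at 13.5 dpc, by 0.30 and 0.36, and neither passed (limma adjusted p over probe sets = 1.0 for both). The 4 probe sets correlated at r = 0.64 to 0.95 over the 12 arrays, and on each of them KO array 2 at 12.5 dpc had the highest value.

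Lhx9 was lower at 13.5 than at 12.5 dpc in both genotypes. On 1419324_at the change was -0.82 in KO (adjusted p = 0.00969) and -0.83 in WT (adjusted p = 0.00641). Between 11.5 and 12.5 dpc it was 0.57 in KO (adjusted p = 0.0434) and 0.39 in WT (adjusted p = 0.130). The KO change between 11.5 and 12.5 dpc was 0.28 without KO array 2 of 12.5 dpc (adjusted p = 0.177), and its adjusted p lay between 0.0547 and 0.190 without either KO array of 11.5 or 13.5 dpc or either WT array of 11.5 or 13.5 dpc. Between 12.5 and 13.5 dpc the KO change was -0.77 without KO array 1 of 13.5 dpc (adjusted p = 0.0631) and the WT change -0.76 without WT array 2 of 13.5 dpc (adjusted p = 0.0566), while the WT change between 11.5 and 12.5 dpc passed without either KO array of 12.5 dpc (adjusted p = 0.0289). With the mean of the 4 probe sets no Lhx9 change between stages passed, at -0.51 in KO and -0.55 in WT for the later step (adjusted p = 0.0853 in KO and 0.0583 in WT). In KO, with all arrays, 1419324_at was the only Lhx9 probe set called at either step. The KO group means of 1429905_at were 10.65, 10.98 and 10.45 at 11.5, 12.5 and 13.5 dpc, and neither of its KO changes was called. On 1429905_at without KO array 1 of 12.5 dpc, which leaves the array with raised Hspa1a and Hspa1b, the KO changes were 0.66 and -0.86 and both passed (adjusted p over probe sets = 0.0244 and 0.00784). The WT change between 12.5 and 13.5 dpc on 1429905_at was -0.67 (limma adjusted p over probe sets = 0.0397), and it no longer passed when any 1 of 9 arrays was left out (-0.70 to -0.49, adjusted p up to 0.202), that is, any array other than the KO arrays and WT array 2 of 12.5 dpc.

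Ldb1, the cofactor that bridges LIM domain proteins, lies on chromosome 19 and was bright in every group. Its probe set had 10.32 and 10.43 on KO arrays at 11.5 dpc, against 10.39 and 10.43 on WT arrays. The values of 12.5 dpc were 10.18 and 10.47 on KO arrays, against 10.18 and 10.22 on WT arrays, and at 13.5 dpc 10.61 and 10.48 on KO arrays, against 10.64 and 10.70 on WT arrays. The genotypes overlapped at 11.5 and 12.5 dpc, and KO lay below WT at 13.5 dpc. KO minus WT averaged -0.01 (CI -0.15 to 0.12, adjusted p = 0.989). Between 12.5 and 13.5 dpc the change was 0.22 in KO (adjusted p = 0.179) and 0.47 in WT (adjusted p = 0.0114). The KO change was 0.36 without KO array 2 of 12.5 dpc and passed (adjusted p = 0.0461), while the WT change was 0.45, 0.50 and 0.44 without WT array 1 of 12.5 dpc, WT array 1 of 13.5 dpc and WT array 2 of 13.5 dpc and did not pass (adjusted p = 0.0509 to 0.0833).

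**Figure D4:**
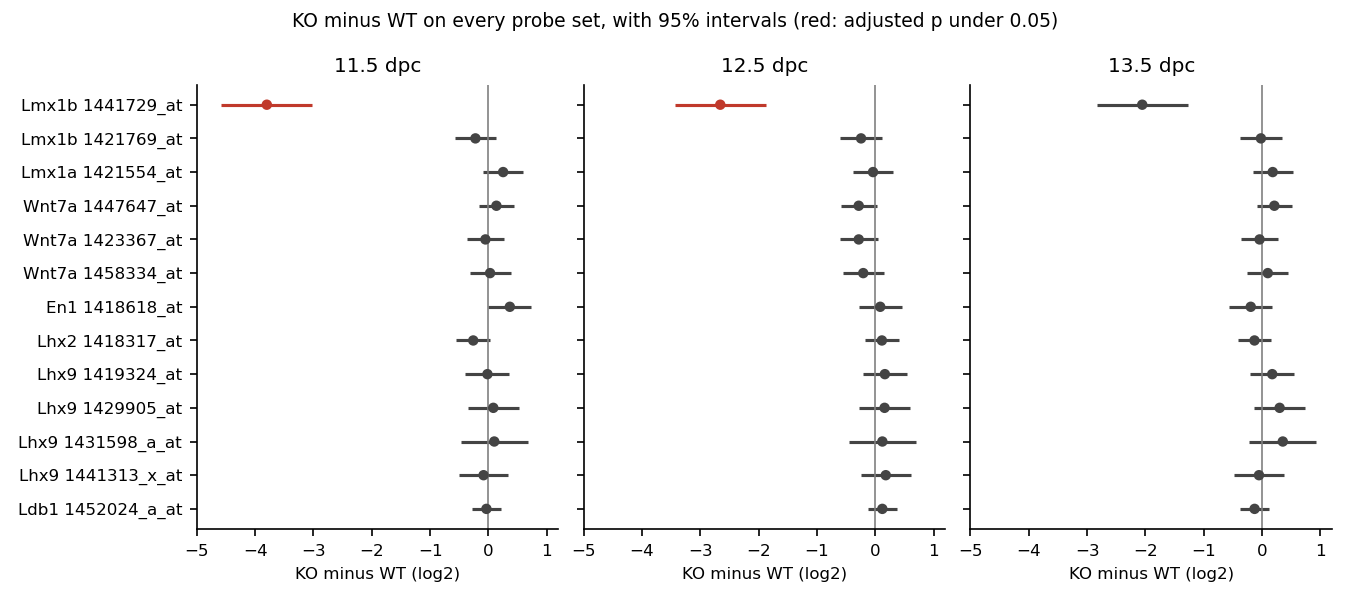
KO minus WT in log2 units (x axis) for each of the 13 probe sets (y axis) at 11.5, 12.5 and 13.5 dpc, with 95% intervals from the limma fit over all probe sets and red for an adjusted p under 0.05. Only 1441729_at of Lmx1b lies far from 0, at -3.80, -2.66 and -2.05.

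Set side by side on their representative probe sets, the 6 genes other than Lmx1b had mean differences of -0.09 to 0.13 with limma adjusted p of 0.854 to 0.989. For that mean their 95% intervals reached at most 0.33 in size, while that of 1431598_a_at, another Lhx9 probe set, reached 0.52. Intervals at single stages were wider. They reached 0.73 for En1 and 0.59 for Lmx1a at 11.5 dpc, and -0.58 for Wnt7a at 12.5 dpc. The members' median difference over the 3 stages was 0.02, against -0.02 over all genes. Of the 7 genes only Lmx1b had KO and WT arrays apart in the same direction at all 3 stages, a pattern found in 1.67% of all genes. At single stages the representative probe sets of 4, 2 and 6 of the 7 genes had KO and WT arrays that did not overlap at 11.5, 12.5 and 13.5 dpc, against 39.5%, 34.3% and 33.9% of all genes. At 13.5 dpc the 5 genes other than Lmx1b in that count had differences of -0.19 to 0.21, in both directions, and none passed. Over probe sets, 1 of 13 was called at 11.5 dpc (0.00888% of all probe sets), 1 at 12.5 dpc (0.335%), 0 at 13.5 dpc (0.0178%) and 1 for the mean over the stages (0.0711%).

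Genes of the same families were read for the same comparison. Of the 8 other LIM homeodomain genes, all measured but only 3 with a group mean above the median of all values, 0 passed between genotypes in the mean or at any stage. Isl1, which marks early hindlimb mesenchyme and motor neurons, had the largest mean difference among them, 0.59 ± 0.18 (adjusted p = 0.472). At 13.5 dpc it had 6.19 and 7.43 on KO arrays, against 5.39 and 5.28 on WT arrays. Its difference there was 1.48 ± 0.31 (unadjusted p = 0.000680, adjusted p = 0.253), and 0.86 without KO array 2 of that stage (adjusted p = 0.546) but 2.10 without KO array 1 (adjusted p = 0.00540), when its mean difference of 0.79 passed too (adjusted p = 0.0273). The second Isl1 probe set had a difference of 1.08 at 13.5 dpc (limma adjusted p over probe sets = 0.313). Lhx4 and Isl2 had mean differences of 0.13 and -0.08 (adjusted p = 0.822 and 0.931), and the list's median was 0.04. Without KO array 1 of 12.5 dpc, Isl2 at that stage (-0.57, adjusted p = 0.0496) and the mean difference of Lhx8 (-0.30, adjusted p = 0.0351) passed.

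Of the 9 LIM cofactors and LIM-only genes, all measured, 0 passed between genotypes. Ldb2, the second member of the Ldb family, had 9.42 and 9.24 on KO arrays at 11.5 dpc, against 9.62 and 9.98 on WT arrays. At 12.5 dpc it had 9.60 and 9.36 on KO arrays, against 9.76 and 9.91 on WT arrays, and at 13.5 dpc 9.46 and 9.73 on KO arrays, against 9.89 and 9.78 on WT arrays. KO lay below WT at all 3 stages, and its mean difference was -0.35 ± 0.09 (unadjusted p = 0.00190, adjusted p = 0.299), or -0.39 without KO array 1 of 12.5 dpc (adjusted p = 0.0493). The other Ldb2 probe sets gave -0.35 and -0.25 (limma adjusted p over probe sets = 0.306 and 0.451). On them the genotypes overlapped, on the first at 13.5 dpc and on the second at 12.5 dpc. KO and WT arrays apart in the same direction at all 3 stages were found in 1.67% of all genes. At 11.5 dpc all 9 genes of the list were on the negative side, at a median difference of -0.12 against -0.02 over all genes, of which 60.3% were negative. At 12.5 and 13.5 dpc 6 and 5 of the 9 were negative, with medians of -0.02 at both, where 54.3% and 52.6% of all genes were. Ssbp2, which stabilises LDB proteins, had a mean difference of -0.14 (adjusted p = 0.662), and the LIM-only genes Lmo4 and Lmo2 had -0.18 and 0.15 (adjusted p = 0.702 and 0.927).

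Of the 26 genes of ectodermal dorsoventral and ridge signalling, all measured and 23 with a group mean above the median of all values, 0 passed between genotypes in the mean or at any stage. The list's median was -0.03 in the mean and -0.15 at 13.5 dpc, against -0.02 and -0.01 over all genes. Bmpr1b, a BMP receptor of digit rays, had 8.95 and 8.86 on KO arrays at 13.5 dpc, against 9.51 and 9.50 on WT arrays. Its difference there was -0.60 ± 0.09 (adjusted p = 0.0874), and it passed without either KO array of 12.5 dpc (adjusted p = 0.0286), as did its mean difference of -0.26 without KO array 1 of that stage (adjusted p = 0.0351). With all 12 arrays, Bmpr1b at 13.5 dpc also passed when the prior was robust and followed intensity (-0.60, limma adjusted p = 0.0425). Shh, the posterior signal of the limb bud, had 6.60 and 7.60 on KO arrays at 13.5 dpc, against 5.85 and 5.68 on WT arrays. The Shh difference was 1.33 ± 0.28 (adjusted p = 0.254), and 0.83 without KO array 2 of 13.5 dpc (adjusted p = 0.691) but 1.83 without KO array 1 (adjusted p = 0.0196).

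Msx1, a BMP target in distal mesenchyme, had 11.78 and 11.21 on KO arrays at 13.5 dpc, against 12.11 and 12.13 on WT arrays. The Msx1 difference was -0.62 ± 0.16 (adjusted p = 0.446), and -0.34 without KO array 2 of that stage (adjusted p = 0.737) but -0.90 without KO array 1 (adjusted p = 0.0182). At 13.5 dpc KO array 2 was farther from WT than KO array 1 for Isl1, Shh and Msx1, and it is the array with raised proximal markers, whose part in these values was not tested. Dkk1, a secreted WNT antagonist, had 7.20 and 7.43 on KO arrays at 11.5 dpc, against 7.99 and 8.34 on WT arrays. Its difference there was -0.85 ± 0.21 (unadjusted p = 0.00234, adjusted p = 1), and in the mean it was -0.38 ± 0.12 (adjusted p = 0.499).

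**Figure D5:**
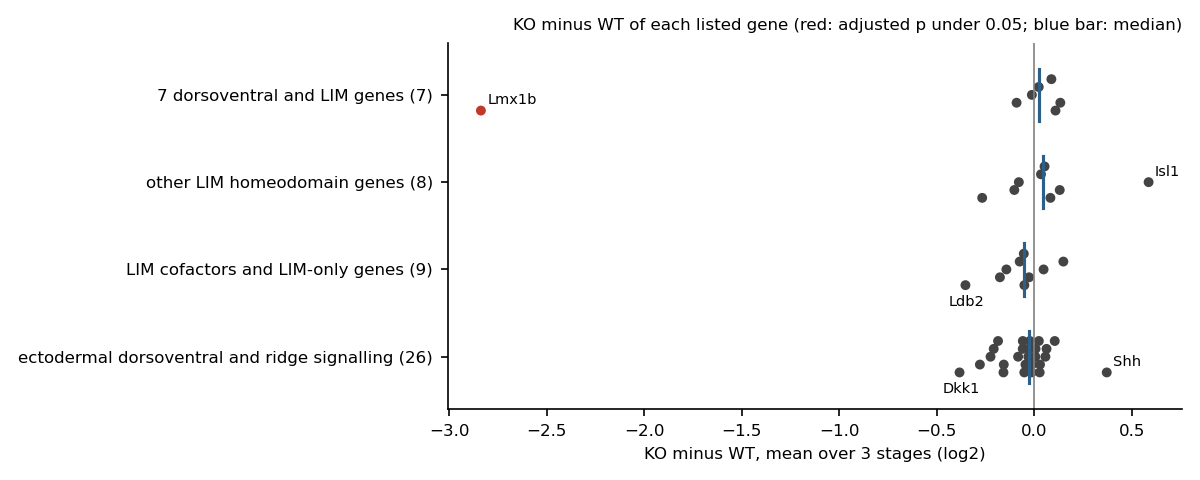
KO minus WT as the mean over 3 stages in log2 units (x axis) for each gene of 4 lists (y axis, number of genes in brackets), one point per gene, with the list's median as a blue bar and red for a limma adjusted p under 0.05. Lmx1b at -2.84 is the one red point, and the labelled Isl1, Shh, Ldb2 and Dkk1 points lie at 0.59, 0.37, -0.35 and -0.38.

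Across stages many of these genes changed in both genotypes. Of all genes, 10.6% fell and 6.22% rose in KO between 11.5 and 12.5 dpc, and 13.1% fell and 6.67% rose in WT. Between 12.5 and 13.5 dpc 8.22% fell and 10.4% rose in KO, and 10.8% fell and 14.5% rose in WT. Markers of other tissues changed at the same steps. At the earlier step 2 of 3 proximal limb markers fell in both KO and WT (median -1.62 in KO and -1.78 in WT), and 2 of 8 skeletal muscle markers rose in KO and 3 in WT (median 0.29 in KO and 0.69 in WT). At the later step 1 of the 8 muscle markers fell in KO and 7 in WT (median -0.69 in KO and -1.39 in WT), and 1 of 6 erythroid markers fell in KO and 3 in WT (median -0.61 in KO and -1.01 in WT). Their part in the stage changes of the lists was not tested. Between 11.5 and 12.5 dpc, 7 of the 26 ectodermal and ridge genes fell and 3 rose in KO, and 10 fell and 4 rose in WT. Fgf8, the growth factor of the apical ridge, fell by 2.13 in KO and by 2.13 in WT (adjusted p = 0.0118 in KO and 0.0102 in WT). Shh fell by 1.13 in KO and by 1.41 in WT (adjusted p = 0.0233 in KO and 0.00837 in WT). These calls were lost without either KO array of 11.5 dpc (Fgf8 at -2.06 and -2.21, Shh at -0.99 and -1.26) and without WT array 2 of 11.5 dpc (Fgf8 at -1.94, Shh at -1.27), for Fgf8 also without WT array 2 of 12.5 dpc (-1.83) and for Shh without KO array 1 of 12.5 dpc (-0.84). Between 12.5 and 13.5 dpc, 1 fell and 4 rose in KO, and 2 fell and 9 rose in WT. Wnt7b, an ectodermal relative of Wnt7a, rose by 0.66 in KO and 0.84 in WT (adjusted p = 0.00719 in KO and 0.00168 in WT).

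Of the 8 LIM homeodomain genes, 1 fell in KO, and 3 fell and 1 rose in WT, between 11.5 and 12.5 dpc. Between 12.5 and 13.5 dpc, 3 rose in KO, and 1 rose and 1 fell in WT. Only 3 of the 8 had a group mean above the median of all values. At the earlier step 10.6% of all genes fell in KO, and 13.1% fell and 6.67% rose in WT. The shares at the later step were 10.4% rising in KO, and 14.5% rising and 10.8% falling in WT. Isl1 changed by -0.97 and then by 1.44 in KO (adjusted p = 0.0560 and 0.0120), the later change being 0.82 without KO array 2 of 13.5 dpc (adjusted p = 0.0174), and by -1.89 and then by 0.56 in WT (adjusted p = 0.00355 and 0.206). Without either KO array of 13.5 dpc, the earlier KO change and the later WT change passed too (adjusted p = 0.00493 in KO and 0.0235 in WT). The tests of the difference between genotypes in those changes gave 0.92 and 0.88 (adjusted p = 0.830 and 0.627). For 13.5 against 11.5 dpc the difference passed without KO array 1 of 13.5 dpc, at 2.42 (adjusted p = 0.0227), on the KO array of that stage that stood apart. Of the 9 cofactor and LIM-only genes, 3 fell in KO, and 5 fell and 1 rose in WT, at the earlier step. At the later step 1 rose in KO and 3 rose in WT. Lmo1, a LIM-only gene, fell by 0.87 in KO and by 1.18 in WT at the earlier step (adjusted p = 0.0200 in KO and 0.00519 in WT), and these calls were lost without either KO array of 11.5 dpc (-0.95 and -0.79), KO array 1 of 12.5 dpc (-0.61) or WT array 2 of 11.5 dpc (-1.09).

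The genes whose pattern over the 12 arrays was most like that of each bright member were looked up among 11548 genes with a mean above the median of all values. For Lmx1b they were Cadps2 (Pearson r = 0.90), Apod, Nrp2, Lum and Dmd (r = 0.88). The arrays of a genotype share the knockout, so this likeness carries the same genotype difference. Apod had 6.41 and 6.46 on KO arrays at 11.5 dpc, 6.75 and 6.74 at 12.5 dpc and 7.02 and 7.29 at 13.5 dpc, against 7.19 and 7.44, 8.33 and 8.50, and 8.36 and 8.37 on WT arrays at the same stages. For Lhx9 they were Cep57 (r = 0.99), a centrosome gene, and Kpna2, Ccp110, Topbp1 and Dbr1 (r = 0.98), which all had their highest value on KO array 2 at 12.5 dpc, as Lhx9 did. For Wnt7a on 1447647_at they were Dio3os and Grip2 (r = 0.93) with Kcnj11, Muc5b and Misp (r = 0.91), for Lhx2 Hars2 (r = 0.91) and Trpc1 (r = 0.86), and for Ldb1 Rora (r = 0.96) and Cd74 (r = 0.95). These correlations are descriptions over arrays that share stage, scan series and genotype.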

How the data were processed

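Each of 12 Affymetrix mouse arrays gave 45101 probe set values. These log2 values are the authors' deposited ones, and the submitters' processing notes name RMA for them; its version and a genome build are not given in the sources used here. This method subtracts background, equalises the arrays and combines a probe set's probes, and fold changes of dim probe sets come out too small. At any rank the 12 deposited columns lay within 0.242 log2 units of each other. Arrays carry no read depth, and 2 arrays a group limit the precision; since the pools are of different embryos, the spread covers differences between pools.

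After leaving out 64 control probe sets, names came from the platform annotation (34945 probe sets name 1 gene, 932 several). All 7 symbols were matched in a RefSeq table, used for names and sequences. Each of 18193 genes was represented by its probe set with the highest mean, and all 45037 probe sets were tested in a second fit. The model had 1 mean per group and used all 12 arrays (limma 3.58.1, R 4.3.3, lmFit and eBayes, 6 residual and 4.22 prior degrees of freedom), with 11 contrasts, two-sided tests and Benjamini-Hochberg adjustment. The fit was tested on simulated data.

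The members and lists were chosen with earlier results of these data known. The naming rule took every member probe set, list genes past the threshold or the up to 4 with the smallest p in the comparison over the stages, and the 5 genes most correlated with each bright member. For changes between stages, and for stage values of list genes, genes were also chosen after their values were seen. No label says that a replicate number links a KO pool to a WT pool, and the correlations of same-numbered deviations were 0.187, -0.120 and -0.0869 at 11.5, 12.5 and 13.5 dpc, so no block was used. Alternatives covered the mean of a gene's probe sets in place of its representative, dim genes, the variance prior, array weights and renewed normalization. Others used the stage's own arrays, a replicate block, or left out each array.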

Additional observations from a re-analysis of the deposited data

Results flagged for a closer look

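A pair of genes had KO and WT arrays apart at 2 stages but in opposite directions. On 1447647_at of Wnt7a, KO minus WT was -0.28 at 12.5 dpc, with both KO arrays below both WT arrays, and 0.21 at 13.5 dpc, with both KO arrays above. The limma test of the difference between those stages gave 0.49 (unadjusted p = 0.0254, adjusted p = 0.530) and did not pass. On the other bright Wnt7a probe set, 1423367_at, the values were -0.28 and -0.04.

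For En1, KO minus WT was 0.37 at 11.5 dpc, with both KO arrays above both WT arrays, and -0.19 at 13.5 dpc, with both KO arrays below. The limma test of the difference between those stages gave -0.56 (unadjusted p = 0.0340, adjusted p = 1) and did not pass. All En1 values lay below the median of all values.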

How the results depend on the processing

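The lower mean of Lmx1b in KO kept its direction and its call in all 20 alternatives, at -3.16 to -1.50, and the other 6 genes were called in none of theirs for that mean. Of 7 member genes, 1 was called at 11.5 dpc, but 0 when the prior was robust and followed intensity, 0 with a replicate block (also 0 of 13 probe sets) and 0 to 1 with single arrays left out (probe sets 0 to 1). At 12.5 dpc the count of 1 was 0 with the mean of a gene's probe sets, the intensity trend, array weights, renewed quantile normalization, the stage's own 4 arrays or the replicate block, and 0 to 1 with single arrays left out. For probe sets at 12.5 dpc it was 0 with array weights, the 4 arrays or the block, and 0 to 2 with single arrays left out. At 13.5 dpc the count of 0 was 1 without KO arrays 2 of 12.5 and 13.5 dpc, for genes and probe sets, and 0 to 1 with single arrays left out. The count of 0 for the KO effect at 13.5 minus 11.5 dpc was 0 to 1 with single arrays left out.

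For KO between 11.5 and 12.5 dpc, 2 genes were called, 1 with the mean of probe sets or renewed quantile normalization, 3 with array weights (adding Lmx1b) or the intensity trend (adding Lhx2), 2 with dim genes left out (Lmx1b in place of En1), and 0 to 3 with single arrays left out (probe sets 1 to 6, against 3). For KO between 12.5 and 13.5 dpc, 2 genes were called, 0 with the mean of probe sets or array weights and 1 to 3 with single arrays left out (probe sets 2 to 5, against 3). For WT between 11.5 and 12.5 dpc, 2 genes were called, 1 with the mean of probe sets or with dim genes left out (which removes En1 from the test), and 0 to 3 with single arrays left out (probe sets 0 to 4, against 3). For WT between 12.5 and 13.5 dpc, 4 genes were called, 2 with the mean of probe sets, 5 with array weights (adding Lmx1b) and 0 to 6 with single arrays left out (probe sets 0 to 6, against 6). The alternatives that leave out an array or use 4 arrays hold fewer arrays, and where an arm keeps 1 array it is assumed to vary like the others. The cause of the other moves was not tested.

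No called gene value changed direction, but no alternative put another single probe set in place of the one that represents a gene. In WT the 2 brighter Wnt7a probe sets were called in opposite directions. Among gene values that passed in neither setting, 57 of 1254 changed sign. The 3 gene lists had 0 calls between genotypes in every comparison and 0 to 2 over the alternatives. Over the alternatives, the earlier stage change called 2 to 13 ectodermal and ridge genes in KO and 2 to 18 in WT, 0 to 2 LIM homeodomain genes in KO and 1 to 4 in WT, and 0 to 5 cofactor genes in KO and 0 to 6 in WT. The later one called 0 to 7 ectodermal and ridge genes in KO and 5 to 14 in WT, 0 to 3 LIM homeodomain genes in KO and 0 to 4 in WT, and 0 to 3 cofactor genes in KO and 1 to 7 in WT. The replicate block changed the Lmx1b calls at 11.5 and 12.5 dpc (adjusted p = 0.0638 and 0.168), the KO change of Lhx9 between 11.5 and 12.5 dpc (0.0589) and that of Lmx1b (0.0310, passing). Over probe sets it also ended the WT changes between 12.5 and 13.5 dpc of Lhx9 on 1429905_at (0.0527) and of En1 (0.0550), and it changed no other member call. Same-numbered arrays deviated together weakly at 11.5 dpc alone (r = 0.187, against -0.120 and -0.0869 at the later stages), so the numbers were not taken to pair the pools.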

Other observations

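C130021I20Rik, a noncoding transcript listed next to Lmx1b in the RefSeq gene table and chosen after its values were seen, had 10.47 and 10.53 on KO arrays at 11.5 dpc, against 10.57 and 10.59 on WT arrays. At 12.5 dpc it had 10.81 and 10.74 on KO arrays, against 10.66 and 10.69 on WT arrays, and at 13.5 dpc 10.86 and 10.85 on KO arrays, against 10.95 and 10.95 on WT arrays. KO lay below WT at 11.5 and 13.5 dpc and above it at 12.5 dpc. The mean difference was -0.02 (95% CI -0.12 to 0.08, limma adjusted p = 0.976), against -2.84 for Lmx1b on 1441729_at. Because the transcript was chosen after its values were seen, it cannot show whether the difference is limited to Lmx1b.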
